A study of Capsella orientalis and Capsella grandiflora with 23 samples.

Results

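The genes described here are the maternally expressed genes of one reciprocal cross of Capsella grandiflora (Cg), an outcrossing relative of Arabidopsis, called Cg pair 1. A gene belonged to the set if it had at least 50 reads over exonic SNPs in each of the 2 directions of pair 1 and if at least 85% of them carried the mother's allele in both. The set held 242 of 9385 genes with that many reads (2.58%), out of 16105 genes with an exonic SNP in pair 1 and 21914 in any of the 4 tables. These genes are called the maternal genes of pair 1, or members. Since the members were chosen by the maternal shares and read counts of pair 1, those values are given as a description without a test. The crosses that took no part in the choice were a further reciprocal pair of Cg (pair 2) and 2 pairs of C. orientalis (Co), a self-fertilising species. Per the labels, both Co pairs were crosses of the same 2 accessions.

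An imprinted gene is one whose maternal and paternal alleles are expressed unequally because of the parent they came from. Plants show this mostly in endosperm, a nourishing tissue of the seed in which the mother contributes 2 genomes and the father 1. A gene read equally from every genome copy therefore has a maternal share of 66.7%, called the dosage here, and a maternally expressed gene lies above it whichever accession is the mother. Reciprocal directions separate this from a difference between accessions, in which a high maternal share in one direction comes with a low one in the other.

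Per the labels, Cg endosperm RNA came from crosses A x B, B x A, C x D and D x C among 4 accessions (6 samples), and Co endosperm RNA came from A x B and B x A between 2 accessions (8 samples). These counts include repeat runs, which the titles number. Female parents were emasculated and pollinated by hand, and endosperm was dissected from 300 to 500 seeds per sample at 6 days after pollination. The other 9 of 23 samples are leaf DNA, and their values were not analysed here. The column names tell mother from father and number the directions, but they hold no sample name, so no direction could be tied to a named cross, and species was read from the table names. The labels do not say how many mother plants gave the seeds of a sample or whether replicates came from separate plants. The p-values therefore measure only the spread between these libraries, which may be technical. In Cg pair 2, fitted without an accession term, that spread also holds any difference between the accessions' alleles. The files name no genes, so the endosperm label was not checked against marker genes and no list of known imprinted genes was matched. In RNA pooled over seeds, fewer cells of a type and less RNA per cell cannot be told apart. Maternal reads of endosperm and of maternal seed tissue carry the same allele and cannot be told apart either.

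Depth limited most of what follows. Cg pair 1 held 8688213 and 8559754 exonic reads in directions 1 and 2, against 536882 and 871449 in Cg pair 2, 432157 and 187220 in Co pair 1 and 512748 and 538785 in Co pair 2. The maternal genes of pair 1 took 1.05% to 1.86% of these reads in every direction. A read spanning several SNPs was counted at each, so intervals on shares, which are 95% Wilson intervals, and limits from reads of 1 parent only, set at 3 counts, cover counting error only and are too narrow. Intervals are those of the deposited tables, which number scaffolds of an assembly whose build the sources used here do not give.

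In pair 1 the members were read almost wholly from the mother. Their median maternal share was 98.2% in direction 1 and 96.5% in direction 2, while the other 9143 genes with enough reads had medians of 66.3% and 66.5%, next to the dosage. The lower of a gene's 2 shares reached 90% in 183 members, 95% in 119 and 99% in 45. In 14 members no paternal read was seen in either direction. The 2 directions of a gene differed by a median of 2.34 percentage points and by at most 14.7. At the edge of the rule, the members just inside it were scaffold 8 (8385512 to 8387577) at 98.1% and 85%, scaffold 8 (5500959 to 5503305) at 88.6% and 85.1%, and scaffold 6 (7319595 to 7321547) at 94.4% and 85.2%. The genes just outside it were scaffold 5 (9502486 to 9504852) at 87.4% and 84.9%, scaffold 8 (5442092 to 5445177) at 92.0% and 84.8%, and scaffold 7 (2671333 to 2674790) at 99.6% and 84.8%. Genes at this limit therefore differed by less than their own counting error: the member at 8385512 had 54 and 60 reads, and its lower share had an interval of 73.9% to 91.9%.

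The members were shorter than the other genes with enough reads. Their gene intervals had a median length of 1825.5 bp (quartiles 1260 to 2767 bp), against 2554 bp (1784 to 3686 bp). Intervals under 1000 bp made up 33 members (13.6%), against 568 other genes (6.21%), and intervals over 5000 bp made up 12 members (4.96%), against 968 other genes (10.6%). When all 9385 genes were ordered by length and divided into 3 parts of like size, members were 139 of 3132 genes in the shortest part (4.44%), 70 of 3124 in the middle part (2.24%) and 33 of 3129 in the longest part (1.05%). The shortest member, on scaffold 4 (11323031 to 11323372, plus strand), was 342 bp long, and the longest, on scaffold 7 (16043956 to 16056163, plus strand), 12208 bp. Depth was lower as well: members had a median of 507.5 exonic reads over both directions (quartiles 255.5 to 1195, range 111 to 24238), against 787 in the other genes, and 169 reads per SNP, against 256. The part of depth in the length difference was not tested.

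**Figure D1:**
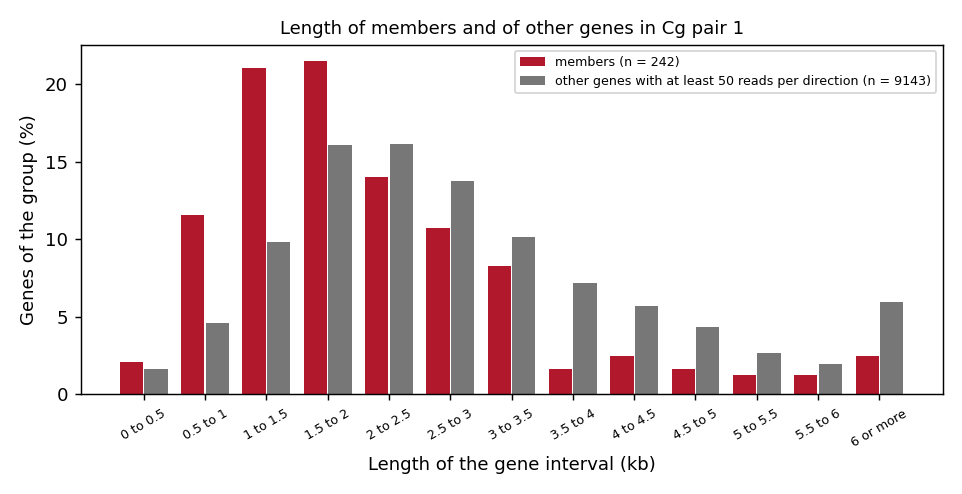
Length of the gene interval in kb (x axis) for the 242 maternal genes of pair 1 (members, red, left bars) and the 9143 other genes with at least 50 exonic reads per direction (grey, right bars), as a percentage of each group. Members have the larger percentage in every class below 2 kb and the smaller one in every class above it.

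The number of SNPs per gene differed little. Members had a median of 3.5 exonic SNPs, against 3 in the other genes, and 46 members (19.0%) rested on 1 SNP, against 1811 other genes (19.8%). Genes with at least 10 SNPs were 17 members (7.02%), against 1018 others (11.1%). Of the 1065 exonic SNPs of members, 96.1% were listed in both directions, against 97.5% over all 9385 genes. Few member intervals overlapped that of another gene with a listed SNP, 5 (2.07%) against 763 (8.35%). Genes without a listed SNP could not be counted, and the shorter length of members was not allowed for. Overlap matters because the kit named in the labels does not mark strand and reads of overlapping genes cannot be separated. Members lay on the plus strand in 48.8% of cases, against 50.7%.

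Single exonic SNPs within members mostly reached the limit as well. Their counts are those that chose the members, and SNPs of a gene can share reads, so this is a description only. Of 636 member SNPs with at least 20 reads in both directions, 583 (91.7%) had a maternal share of at least 85% in both, and 4 had a share under 50% in a direction. In 115 of 147 members with 2 or more such SNPs, every one of them reached 85% in both directions. A further 79 members had 1 such SNP and 16 had none. SNPs in the gene interval but outside annotated exons, which the rule did not use, gave another picture. Of 46 members with at least 20 such reads in both directions, 5 (10.9%) reached 85% in both, against 8 of 3439 genes (0.233%). Median shares there were 65.7% and 84.1% in members, against 55.6% and 65.2% over all genes.

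Members were found on each of scaffolds 1 to 8 and on none of the smaller ones, which held 40 genes with enough reads. Their share of such genes ran from 1.94% on scaffold 3 (25 members) and 2.15% on scaffold 1 (32) to 3.24% on scaffold 4 (34) and 3.50% on scaffold 2 (33). Scaffold 7 held the most members, 39 (3.03%), and scaffolds 5, 6 and 8 held 22, 30 and 27. Another member lay within 20 kb of 34 members (14.0%), and a member lay within that distance of 828 other genes (9.06%). These 34 formed 16 runs, 14 of 2 genes and 2 of 3 genes. On scaffold 2 (12045549 to 12070893) 3 of 4 genes with enough reads were members, and on scaffold 7 (10266693 to 10295767) 3 of 5. The strands of neighbouring members varied, minus, plus and minus in the scaffold 2 run and plus, minus and minus in the scaffold 7 run.

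Most members could not be followed outside pair 1. An exonic SNP in Cg pair 2 was listed for 187 members, in Co pair 1 for 62 and in Co pair 2 for 59, and 47 members had none in any of these tables. With a minimum of 20 reads per direction, 75 members were measured in Cg pair 2, 15 in all 4 Co directions, and 8 in all 8 directions of the study. In Co pair 2 alone, 28 members were measured. For 151 members no other pair gave that many reads in both of its directions, 47 of them for want of an exonic SNP in any other table, so the counts below describe the members that could be read and not the whole set.

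In Cg pair 2 the members were again shifted to the mother, but most did not repeat the strict share. Of the 75 measured, 13 (17.3%) had a maternal share of at least 85% in both directions, where 0.707% of all 4948 measured genes did (35 genes). Among genes that had enough reads in pair 1 but were not members, 9 of 3420 (0.263%) did. The count of 13 was 8 of 36 members with at least 50 reads per direction, against 16 of 2445 genes, and 31 of 176 with at least 1 read, against 383 of 13900 genes. At a limit of 90% it was 8 of 75 members, against 20 of 4948 genes. Shares lay above the dosage in both directions in 33 members (44.0%), against 9.18% of all genes, and below it in both in 2 members (2.67%), against 29.2%. The median share was 72.7% in direction 1 and 86.0% in direction 2 for members, against 54.4% and 67.9% over all genes, with median reads of 50 and 86 per member against 51 and 80.

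**Figure D2:**
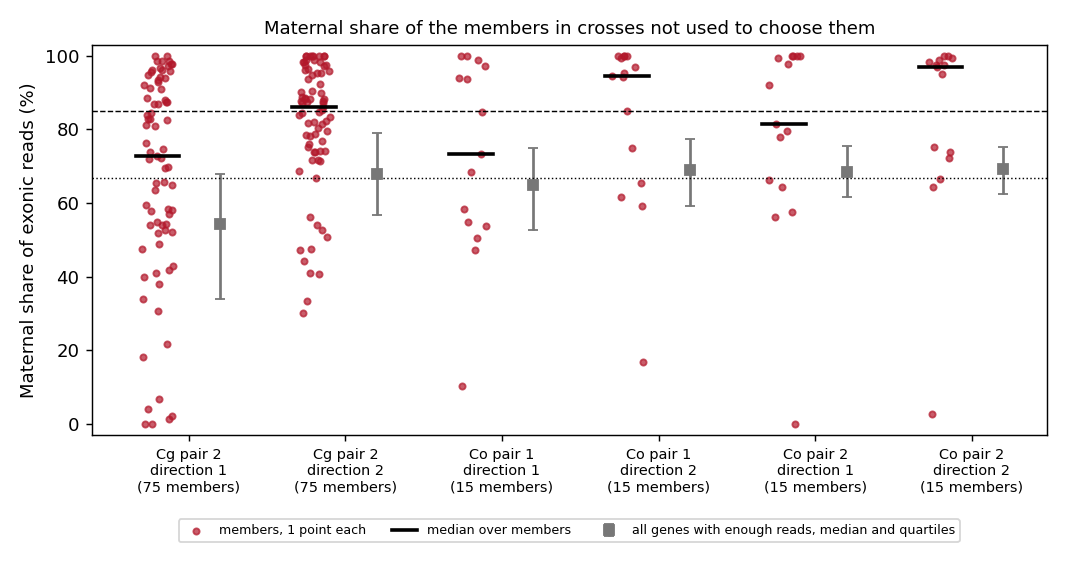
Maternal share of exonic reads in percent (y axis) in the 6 directions that took no part in choosing the members. Red points are single members with at least 20 reads in every direction of the comparison, black bars their medians, grey squares and whiskers the median and quartiles of all genes with that many reads, the dashed line 85% and the dotted line the dosage of 66.7%. In Cg pair 2 the member medians are 72.7% and 86.0%, and single members there range from 0% to 100% in direction 1 and from 30% to 100% in direction 2.

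Directions of pair 2 were unequal. In direction 1, 27 members (36.0%) reached 85%, where 4.91% of all genes did, and in direction 2, 39 members (52.0%), where 15.3% did. The limit was reached in direction 2 alone by 26 members (34.7%, against 14.6% of all genes), in direction 1 alone by 14 (18.7%, against 4.20%), and in neither by 22 (29.3%, against 80.5%). A share of at least 85% in one direction with under 50% in the other, a pattern that changes sides with the direction, was found in 18 members (24%), against 13.9% of all genes. The low direction was direction 1 in 13 of these and direction 2 in 5. Over all genes the exonic maternal share of direction 1 was itself low, 52.0% against 65.0% in direction 2, and 29.2% of the exonic SNPs of the table were not listed in direction 1, against 2.53% in direction 2. For SNPs of members these percentages were 16.3% and 2.97%. Their part in the low shares of direction 1 was not tested.

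**Figure D3:**
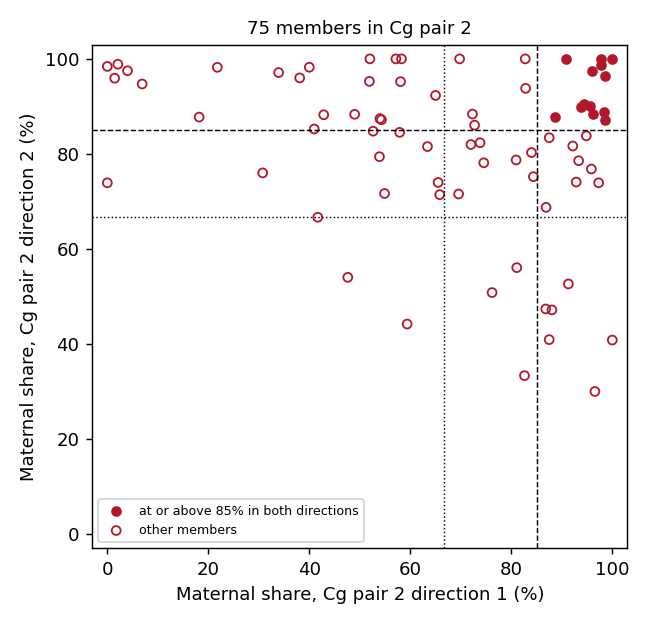
Maternal share of each of the 75 members measured in Cg pair 2, direction 1 on the x axis and direction 2 on the y axis, both in percent. Filled points are the 13 members at or above 85% (dashed lines) in both directions, open points the other 62, and dotted lines mark the dosage of 66.7%. The points run along the top and down the right side, and only 2 lie below the dosage in both directions.

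The strongest of the 13 in pair 2 was the gene on scaffold 6 at 8912943 to 8916184 (minus strand). All of its 129 reads in direction 1 and all of its 126 reads in direction 2 were maternal, which allows shares down to 97.7% and 97.6%. In pair 1 its shares were 95.1% and 90.9%, so it was less exclusive there than in the pair that did not choose it. Co gave it another pattern, with 41.0% (29.5% to 53.5%) of 61 reads and 93.0% (81.4% to 97.6%) of 43 reads maternal in pair 2.

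Among the 6 highest by their lower share was also scaffold 4 at 7192684 to 7196495 (plus strand). Pair 2 gave it maternal shares of 97.7% (92.0% to 99.4%, 87 reads) and 98.7% (96.3% to 99.6%, 235 reads). Scaffold 1 held 2 such genes. The gene at 4155070 to 4156370 (plus strand) had 97.8% (88.4% to 99.6%) of 45 reads in direction 1 and all of 33 reads in direction 2, down to 90.9%. The gene at 5775294 to 5777017 (plus strand) had 96.0% (86.5% to 98.9%) of 50 reads and 97.5% (93.8% to 99%) of 161 reads. Both rested on 1 exonic SNP in pair 1. On scaffold 8, the gene at 8945803 to 8947217 (minus strand) had 98.5% (91.9% to 99.7%) of 66 reads and 96.3% (89.8% to 98.7%) of 82 reads. It had been close to the limit in direction 1 of pair 1, at 85.8% (83.6% to 87.7%). On scaffold 4, the gene at 6849920 to 6852152 (minus strand) had 90.9% (72.2% to 97.5%) of 22 reads and all of 69 reads, down to 95.7%.

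The remaining 7 of the 13 lay between 87.2% and 98.5%. They included the deepest member, on scaffold 5 (8640281 to 8641210, minus strand), with 24238 reads in pair 1. Its shares were 89.0% (88.4% to 89.6%) and 92.4% (92.0% to 92.9%) in pair 1, while in pair 2 they were 94.3% (89.5% to 97.0%, 158 reads) and 90.4% (84.5% to 94.2%, 146 reads). This gene was thus strongly maternal in all 4 Cg directions without reaching an exclusive share in any. Scaffold 8 at 2799618 to 2801036 (plus strand), another of the deepest, had all of 4560 reads and 98.9% of 3304 reads in pair 1, while pair 2 gave 95.5% (92.5% to 97.4%, 292 reads) and 90.2% (85.5% to 93.5%, 214 reads). Scaffold 7 at 10167039 to 10170157 (plus strand) had pair 2 shares of 98.5% (92.1% to 99.7%, 68 reads) and 87.2% (73.3% to 94.4%, 39 reads), and it overlaps a gene on the other strand, so its reads are uncertain. The other 4 were scaffold 4 at 14607987 (98.4% and 88.9%), scaffold 6 at 6198054 (93.9% and 89.9%), scaffold 8 at 5801172 (96.2% and 88.3%) and scaffold 8 at 7903809 (88.6% and 87.7%).

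Among other deep members, 2 fell just short in pair 2. Scaffold 2 at 1047690 to 1050750 (minus strand) had 94.9% (92.8% to 96.3%) of 622 reads and 83.8% (79.1% to 87.6%) of 284 reads. Scaffold 3 at 7458235 to 7461126 (plus strand) had 84.0% (78.3% to 88.4%) of 200 reads and 80.3% (73.0% to 86.0%) of 142 reads. Both stayed above the dosage in both directions, and the interval of the lower share included the limit in each. The 13 that passed had median lengths of 1900 bp, against 2396 bp in the 62 that did not, and 1909 exonic reads in pair 1, against 795. Their lower share in pair 1 had a median of 92.4%, against 95%.

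A higher share in pair 1 did not go with a steadily higher count in pair 2. Among members whose lower share in pair 1 was 85% to 90%, 3 of 20 (15.0%) passed in pair 2, at 90% to 95% 5 of 19 (26.3%), at 95% to 99% 2 of 26 (7.69%), and above 99% 3 of 10 (30%). Just below the limit, at 80% to 85%, 0 of 16 genes passed, although 7 of them (43.8%) lay above the dosage in both directions. At 70% to 80%, 2 of 125 genes (1.6%) passed, and in the 3 lower bins 0.111% to 0.439% did. The classes from 80% to 85%, from 90% to 95% and above 99% hold under 20 genes each. The lower shares of the 2 pairs had a rank correlation of 0.14 over the 3495 genes with enough reads in both. The Pearson correlation was 0.21. Within a pair all genes share the libraries and their depth, so both values are given as a description.

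**Figure D4:**
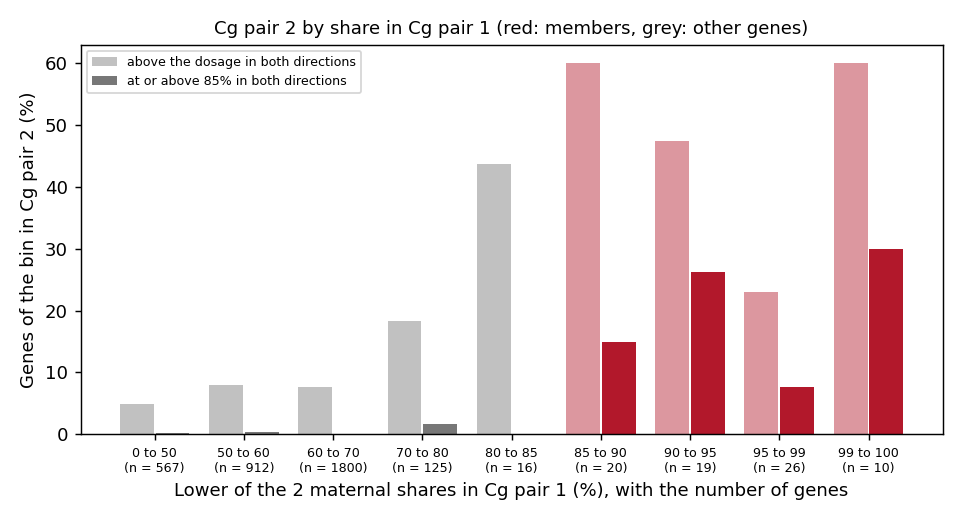
Percentage of genes (y axis) that lay above the dosage in both directions of Cg pair 2 (pale bars, left) or reached 85% in both (full bars, right), by the lower of the gene's 2 maternal shares in Cg pair 1 (x axis, with the number of genes). Red bars are members and grey bars other genes. The full bars are at or below 1.6% for all grey classes and between 7.69% and 30% for the red ones.

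At the other end, 6 members with the lowest shares in pair 2 were low in direction 1 and above the dosage in direction 2. Scaffold 1 at 18578717 to 18579944 (plus strand) had 0 maternal of 25 reads in direction 1, so up to 12% is allowed, but 98.4% (91.5% to 99.7%) of 63 reads in direction 2. Scaffold 4 at 1180130 to 1180974 (minus strand) had 0 of 88 reads, up to 3.41%, and 73.9% (59.7% to 84.4%) of 46 reads. Scaffold 7 at 9781538 to 9783471 (plus strand) had 1.45% (0.398% to 5.13%) of 138 reads and 95.9% (90.8% to 98.3%) of 123 reads. These genes all had a low share in one direction that stood beside a higher one in the other. Scaffold 3 at 6477010 to 6478515 (minus strand) did the same at greater depth, with 6.90% (5.18% to 9.13%, 638 reads) and 94.7% (92.6% to 96.3%, 587 reads). That gene in pair 1 was just inside the limit, at 85.4% and 85.2%. Scaffold 8 at 6557735 to 6559377 (plus strand), 1 of the 8 deepest members, had 2.08% (0.369% to 10.9%) of 48 reads and 98.9% (93.9% to 99.8%) of 89 reads. Scaffold 7 at 1443769 to 1448858 (plus strand) had 4.0% (0.710% to 19.5%) of 25 reads and 97.5% (87.1% to 99.6%) of 40 reads.

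Both members below the dosage in both directions of pair 2 were thinly read there. Scaffold 2 at 831700 to 834459 (minus strand) had only maternal reads in pair 1, 205 and 248, and in pair 2 a maternal share of 59.4% (42.3% to 74.5%) of 32 reads and 44.2% (30.4% to 58.9%) of 43 reads. Its log2 deviation from the dosage in pair 2 was -0.89 ± 1.01 (SE, n = 2 directions), less than its error. Scaffold 7 at 16043956 to 16056163, the longest member, which overlaps another gene interval, had 93.0% and 87.0% in pair 1. Its pair 2 shares were 47.6% (28.3% to 67.6%, 21 reads) and 54.0% (43.6% to 64.1%, 87 reads), a deviation of -0.94 ± 0.83.

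The quasi-likelihood test of edgeR gave no call in pair 2. It was fitted to all 4948 genes with the direction as a block and the dosage as the null, and it left 1 residual degree of freedom per gene. With no accession term, that degree of freedom holds any difference between the accessions' alleles, which the test treats as error. The adjusted p passed 0.05 for 0 of 75 members (0.0% of all genes), and the lowest member value was 0.999. At an unadjusted p under 0.05, 8 members were maternal and 0 paternal, where 0.384% of all genes were maternal (19 genes). Scaffold 4 at 7192684 had a log2 deviation of 4.82 ± 0.77 (SE, edgeR adjusted p = 0.999), and scaffold 6 at 8912943 had 9.58 ± 1.28 (edgeR adjusted p = 0.999), a size that depends on the prior count because no paternal read was seen. DESeq2 with the dosage as the null also called 0 members. With its own size factors DESeq2 called these 2 genes and no other member, at adjusted p = 0.0351 and 0.00654, out of 4 calls over all 4948 genes. The median log2 deviation of members was 0.89 (quartiles 0.21 to 2.02), against -0.38 over all genes, and 61 members (81.3%) were on the maternal side, against 27.5% of all genes. With the deepest SNP of each gene in place of the sum, the median was 2.18 over 38 members, against -0.23 over all genes. It was 0.50 over 81 members with all SNPs of the gene, against -0.49, and 0.52 over 78 members without direction 2, against -0.75. Without the direction as a block it was 0.55, against -0.45.

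Members with some reads in pair 2 but under 20 in a direction numbered 112. Their summed reads were 68.2% maternal (65.0% to 71.2%) of 868 reads in direction 1 and 61.6% (59.6% to 63.5%) of 2353 reads in direction 2, against 46.9% and 58.0% for all 12162 genes of that depth. Few SNPs were common to both Cg pairs: 105 positions were 9.86% of the member SNPs of pair 1 and 12% of those of pair 2. On shared positions alone 3 of 10 measured members reached 85% in both directions of pair 2, and on positions of pair 2 alone 12 of 68 did. The share of all genes on either set of positions was not counted.

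In Co, 15 members could be read in all 4 directions, and their bias was again more often maternal than that of other genes. A share of at least 85% in all 4 was found for 4 members (26.7%), where 1.24% of all 1213 genes had one, and a share above the dosage in all 4 for 7 (46.7%), where 8.66% did. Below the dosage in all 4 lay 1 member (6.67%), where 3.87% did. The edgeR fit, here with an accession term within each pair, called 8 of 15 members maternal (53.3%) at an adjusted p under 0.05, where 3.63% of all genes were called (44), and called 0 members paternal (1 at an unadjusted p under 0.05), where 3.96% of all genes were. The median log2 deviation was 1.72, against 0.04 over all genes. The fit left 1 residual degree of freedom per gene, as in Cg pair 2, and edgeR draws each gene's spread towards that of all genes fitted. Small p-values thus do not rest on the gene's own spread alone. These calls rested on few libraries. They numbered 0 of 16 members without direction 1 of pair 1, against 0 of 1227 genes, and 2 of 25 without its direction 2, against 10 of 1982. They numbered 4 of 15 without direction 1 of pair 2, against 18 of 1221 genes, and 0 of 15 without its direction 2, against 0 of 1219. Each of these fits also lost the accession term of its pair. Without any accession term 0 members and 0 genes were called, and with no block for the library 4 members and 21 genes were. The median was 4.11 over 16 members without direction 1 of pair 1, against 0.12 over all genes, and 1.02 over the 21 members of a set chosen at 80% in Cg pair 1.

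**Figure D5:**
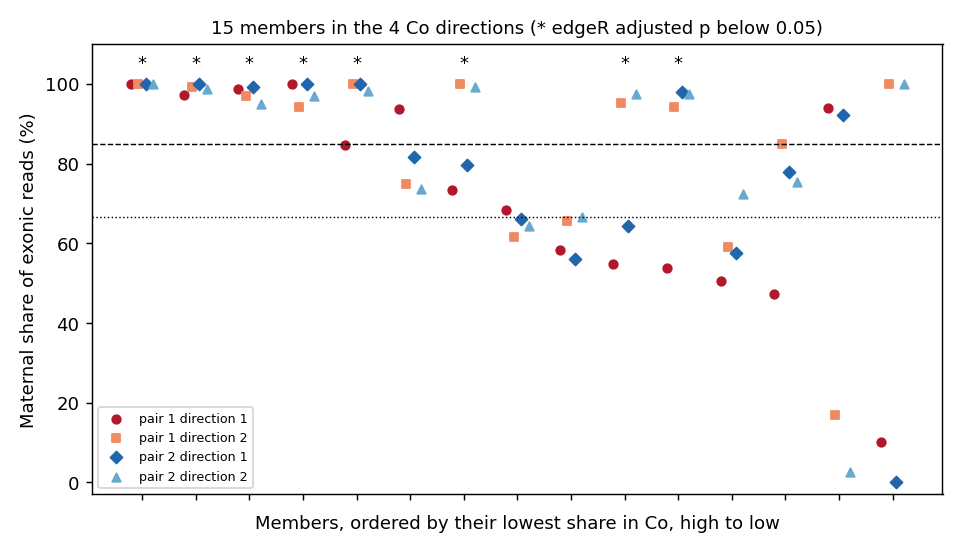
Maternal share in percent (y axis) of the 15 members measured in all 4 Co directions, ordered on the x axis by their lowest share, with a symbol for each direction. Stars mark the 8 members with an edgeR adjusted p under 0.05, the dashed line is 85% and the dotted line the dosage of 66.7%. The first 4 members have all symbols above 85%, and the last 2 have directions near 100% or 90% beside directions near 0%.

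The 4 members with at least 85% in every Co direction were all called. Scaffold 6 at 7140391 to 7146417 (plus strand) had only maternal reads, 22, 22, 37 and 54, which allows shares down to 86.4%, 86.4%, 91.9% and 94.4% (deviation 7.68 ± 1.23, SE, n = 4 directions, edgeR adjusted p = 0.000203). The size of that deviation depends on the prior count, because no paternal read was seen. The shares of this gene in Cg pair 2 were lower, 81.1% (65.8% to 90.5%) of 37 reads and 56.1% (44.1% to 67.4%) of 66 reads. Scaffold 3 at 4851456 to 4853543 (plus strand) was the deepest of the 4 in Co, with 98.8% (97.5% to 99.5%) of 512 reads, 97.0% (93.1% to 98.7%) of 165 reads, 99.3% (98.1% to 99.8%) of 460 reads and 95% (91.9% to 96.9%) of 299 reads. It deviated by 4.70 ± 0.29 (edgeR adjusted p = 2.11e-10), and in Cg pair 2 it had 3 reads per direction, all maternal. Another member lies next to it at 4847175, within 20 kb.

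Scaffold 3 at 7121264 to 7122908 (plus strand) had all of 31 reads, 94.1% (80.9% to 98.4%) of 34 reads, all of 44 reads and 97.0% (89.6% to 99.2%) of 66 reads maternal in Co, with a deviation of 5.64 ± 0.94 (edgeR adjusted p = 0.000305). It rested on 1 exonic SNP in each Co pair. In Cg pair 2 it lay above the dosage without reaching the limit, at 73.8% (58.9% to 84.7%) of 42 reads and 82.4% (66.5% to 91.7%) of 34 reads. Of 8 members with enough reads in all 8 directions, only the scaffold 1 gene at 4155070 reached 85% in the 6 outside Cg pair 1. In Cg pair 1 the rule required it of every member, and the same count over all genes was not made. The gene at 4155070 rested on 1 exonic SNP in each Cg pair and in each Co pair. Its lowest share was 97.3% (92.3% to 99.1%) of 110 reads, in direction 1 of Co pair 1, and its Co deviation was 6.30 ± 0.43 (edgeR adjusted p = 8.19e-10). Its adjusted p was 0.0897 without direction 1 of Co pair 1 and 0.562 without direction 2 of Co pair 2.

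The other 4 called members had a direction below 85%. Scaffold 2 at 831700, at 59.4% and 44.2% in Cg pair 2, had 84.7% (76.8% to 90.2%) of 111 reads, all of 32 reads, all of 209 reads and 98.2% (93.8% to 99.5%) of 114 reads in Co (deviation 7.10 ± 0.82, edgeR adjusted p = 3.18e-06). Scaffold 5 at 6012082 to 6013096 (plus strand) had 73.4% and 79.6% in direction 1 of the 2 pairs and all of 140 reads and 99.3% of 281 reads in direction 2 (deviation 3.75 ± 0.35, edgeR adjusted p = 1.76e-07). It stayed above the dosage throughout, and more so in one direction than in the other. Scaffold 1 at 12065572 to 12072252 (plus strand), with 12385 reads in pair 1, had 54.9% (51.0% to 58.8%) and 64.2% (61.5% to 66.9%) in direction 1 of the Co pairs and 95.3% and 97.4% in direction 2 (deviation 1.72 ± 0.19, edgeR adjusted p = 1.20e-06). It was called although its share in direction 1 of pair 1 lay below the dosage with its whole interval, since the accession term takes up the difference between directions. The same gene had Cg pair 2 shares of 33.9% (29.1% to 39.1%, 339 reads) and 97.1% (94.2% to 98.6%, 243 reads). Scaffold 6 at 14229949 to 14232954 (plus strand) had its low value in direction 1 of pair 1, 53.8% (49.9% to 57.7%, 630 reads), beside 94.3%, 97.9% and 97.6% elsewhere (deviation 2.67 ± 0.43, edgeR adjusted p = 0.000182), and its DESeq2 adjusted p was 0.165 with own size factors and 0.192 with the dosage as the null.

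Of the 7 members not called in Co, some were near the dosage and some alternated with the direction. Scaffold 8 at 6227717 to 6228966 (minus strand) lay near the dosage in Co, at 61.5% to 68.5% over 265 to 1089 reads (deviation -0.10 ± 0.16, edgeR adjusted p = 0.877), while in Cg pair 1 it had 94.3% and 92.9% of 5887 and 6131 reads. Scaffold 2 at 771892 to 773906 (plus strand) had 56.1% to 66.5% in Co, the 1 member below the dosage in all 4 directions (deviation -0.31 ± 0.15, edgeR adjusted p = 0.339). Its shares in Cg pair 2 were 65.5% (59.1% to 71.4%) of 229 reads and 74.0% (67.9% to 79.3%) of 223 reads. Scaffold 7 at 7682456 to 7683199 (minus strand) was also near or below the dosage outside pair 1, at 50.6%, 59.1%, 57.5% and 72.3% in Co and 41.7% and 66.7% in Cg pair 2, against 97.2% and 92.9% in Cg pair 1.

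Alternation with the direction was plainest in 2 members, each of which rested on 1 exonic SNP in each Co pair. The 2 Co pairs cross the same accessions, so a pattern seen in both is a repeat of 1 cross. Scaffold 2 at 12474957 to 12476226 (minus strand) had 94.0% (89.0% to 96.8%) and 92.1% (85.7% to 95.8%) in direction 1 of the Co pairs and 16.9% (9.48% to 28.5%) and 2.68% (0.915% to 7.58%) in direction 2. The shortest member, at 11323031 on scaffold 4, had 10.3% (4.06% to 23.6%) of 39 reads and 0 of 67 reads, up to 4.48%, in direction 1, and all of 21 and of 31 reads in direction 2. In Co the high share of each thus changed sides with the direction. In Cg pair 1, whose shares chose the members, the lower of the 2 shares was 99% for the first and 99.7% for the second. In Cg pair 2 the first had 58.1% (50.9% to 64.9%) of 186 reads and 95.2% (92.5% to 97.0%) of 355 reads. The second had no exonic SNP there. The last 2 members lay between: scaffold 3 at 9572979 to 9574502 (plus strand) had 73.8% to 93.7% in Co (deviation 1.21 ± 0.49, edgeR adjusted p = 0.184), and scaffold 7 at 2708937 to 2715592 (plus strand) had 47.2% to 84.9% (deviation 0.49 ± 0.28, edgeR adjusted p = 0.455).

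Co pair 2 alone was deeper and measured 28 members. A share of at least 85% in both its directions was found for 12 (42.9%), where 2.48% of all 2138 genes had one, and a share above the dosage in both for 18 (64.3%), where 28.8% did. Among genes with enough reads in Cg pair 1 that were not members, 17 of 1354 (1.26%) reached 85% in both. In Co pair 1 the count was 4 of 15 members (26.7%), where 1.95% of all genes passed. For genes measured in Co pair 2 but not in every Co direction, the share passing over all genes was not counted. Of the 13 such members, 6 reached 85% in both directions of Co pair 2. Scaffold 8 at 8945803 was among them, with 97.4% (92.7% to 99.1%) of 117 reads and 96.9% (92.3% to 98.8%) of 129 reads, so that it and the gene at 4155070 were the 2 members that passed in both Cg pair 2 and Co pair 2, of 12 measured in both. A further 4 passed in Co pair 2 only, 1 in Cg pair 2 only and 5 in neither. The same split over all genes was not counted. Scaffold 8 at 5893158 to 5897979 (minus strand) passed in Co only: it had all of 20 and of 369 reads maternal in Co pair 2, down to 85% and 99.2%, and 21.8% (18.0% to 26.1%) of 404 reads against 98.2% (96.4% to 99.1%) of 394 reads in the directions of Cg pair 2.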

How the data were processed

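The deposited tables list, per the file headers, whole-number read counts of the maternal and paternal allele at each SNP in 2 cross directions, with the exon and gene interval; the authors made these counts before deposit. Trimmomatic, Bismark and Bowtie2 are named without roles or versions, as the submitters' processing notes record. Which program aligned the RNA and called SNPs, the build and the annotation, and whether repeat runs were merged, the sources used here do not give. Of value columns, 23 more in each of 4 tables were not used.

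Counts were summed over exonic SNPs of the first gene listed, and the shares and intervals computed with pandas 2.3.3 and scipy 1.17.1 (Python 3.11.15, figures with matplotlib 3.10.9). Genes with at least 20 reads in every direction of a comparison were fitted with edgeR 4.0.16 (R 4.3.3), glmQLFit and glmQLFTest, on maternal and paternal columns, with the library as a block, an offset for the 2 to 1 dosage and, in Co, the allele's accession within a pair. In Cg pair 2 an accession term would have left no residual degree of freedom. The 2 columns of a block are alleles of 1 library, so the pairing comes from the design. A log2 deviation of 0 is the dosage and positive values are maternal; its SE is its absolute value over the square root of F. The p-values were adjusted by Benjamini-Hochberg over all genes fitted and called at 0.05. DESeq2 1.42.0 was an alternative, as were other read minimums, SNP sets, share limits and omitted directions. The fits were tested on simulated data, whose outcome is not given here. The data simulated for Cg pair 2 held no difference between accessions.

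The members, lists and tests were chosen with earlier results of these data known. Named members were those with enough reads in all 8 directions, the 8 deepest in Cg pair 1, the 6 highest and 6 lowest by the lower share in Cg pair 2, the 4 highest and 4 lowest in Co, those at the limit of 85%, and the longest and shortest. Other members named, among them all that passed in Cg pair 2 and all 15 in Co, were chosen after their values were seen.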

Additional observations from a re-analysis of the deposited data

Results flagged for a closer look

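For 15 members all 4 Co directions were examined, and in 2 members 1 direction stood far from the other 3, where chance marks about 1 in 20. On scaffold 2 the gene at 831700 had a maternal share of 84.7% in direction 1 of pair 1, and 98.2% or more in the other 3. On scaffold 6 the gene at 14229949 had 53.8% in direction 1 of pair 1, against 94.3% to 97.9% in the others.

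The gene at 831700 also lay below the dosage in both directions of Cg pair 2, where 29.2% of all genes did. Its log2 deviation there was -0.89 ± 1.01 (SE), less than its error. The longest member, on scaffold 7 at 16043956, did the same, with a deviation of -0.94 in pair 2. In pair 1 the rule itself placed both genes above the dosage, so that side of the contrast was set by the choice. The difference between the pairs was not tested for either gene.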

How the results depend on the processing

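Of 108 alternative values of the 6 summary results, 0 reversed and 86 stayed within the limits set for them, which are 1.5 times for a count and 1 SD between the directions for a median. These limits are wide: the SD was 0.85 in Cg pair 2 and 1.53 in Co, near the medians of 0.89 and 1.72. Only the medians have a sign that could reverse. The edgeR calls in Cg pair 2 were 0 over all genes too, so that count had little room to move. In Cg pair 2 the 13 of 75 members at 85% in both directions (35 of 4948 genes) were 8 of 36 at a minimum of 50 reads (16 of 2445 genes), 31 of 176 at 1 read (383 of 13900) and 8 of 75 at a limit of 90% (20 of 4948). With 1 direction left out, so that only the other had to pass, they were 30 of 78 (266 of 5109 genes) and 48 of 118 (1456 of 9059). The 0 edgeR calls became 2 with DESeq2 and its own size factors (4 of 4948 genes). The median deviation of 0.89 was 2.18 with the deepest SNP, 0.50 with all SNPs, and 0.52 to 1.01 with a direction left out. TMM scaling moved the median of all genes there to 0.02, against -0.38 without it, and that of members to 1.27.

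In Co the 8 calls of 15 members (44 of 1213 genes) became 5 of 9 at 50 reads (28 of 581 genes), 13 of 46 at 1 read (59 of 3587), 5 of 12 with the deepest SNP (35 of 984), 0 without the accession term (0 of 1213) and 0 to 4 with a direction left out. The 4 members at 85% in all Co directions became 2 of 9 at 50 reads (8 of 581 genes), 12 of 46 at 1 read (62 of 3587), 2 of 12 with members of at least 200 reads in pair 1, and 4 to 7 with a direction left out. The Co median of 1.72 was 1.02 with members chosen at 80%, and 1.51 to 4.11 with a direction left out. With no replicate block the Co calls fell to 4 (21 of 1213 genes), the Co median was 1.55, and in Cg pair 2 the calls stayed 0 and the median was 0.55.

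Other read minimums change which genes are counted, and for the other changes the cause was not tested. The settings with the deepest SNP, SNPs listed in both directions, members with several SNPs and members overlapping no gene were chosen after seeing the data. In Cg pair 2 edgeR made no call with a direction left out, as no residual degree of freedom remained. Outside pair 1, 151 of 242 members were not measured, 47 of them for want of an exonic SNP in any other table.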
